A study of Mus musculus with 4 samples.

Results

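Collagen chain genes were taken as all genes whose RefSeq symbol has the form Col, a number, the letter a and a number, on 4 arrays of RNA from mouse testis at postnatal day 7. RefSeq names 44 such genes, and 38 of them had at least 1 probe on the array, 59 probes in all among 41174. The testes came from mice carrying a transgene, Tg-Nanos2 enhancer-3xFLAG-Nanos2-3'UTR, in which a Nanos2 enhancer drives the tagged protein. NANOS2 binds RNA and is made in the male germ line. RNA recovered with the FLAG tag (FLAG IP, 2 arrays) was set against RNA of the starting material (Input, 2 arrays), and all 4 arrays carry the same transgene and age. The comparison asks which transcripts are carried with NANOS2. The replicates are called biological in the series' design text, no animals are named, and a FLAG IP from untagged testis was not analysed here. One label field speaks of a fetal gonad, but the age used here, from the titles, is postnatal day 7. The 4 arrays shared 1 slide and 1 scan.

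Each level below is a log2 signal after subtraction of its array's 75th percentile, and a change is the mean FLAG IP level minus the mean Input level, with the limma standard error (SE, n = 2 arrays per group). A gene was called at an adjusted p under 0.05 over all 27833 tested probes, on its brightest probe. As a check of the tissue, all of the listed Sertoli (12 of 12), Leydig (8 of 8) and peritubular myoid (10 of 10) markers and 15 of 15 germ cell markers with a probe were well above background in FLAG IP or Input. Nanos2 itself had levels of −1.94 and −2.44 in the FLAG IP arrays, against −3.87 and −3.66 in the Input arrays, a change of 1.58 ± 0.22 (adjusted p = 0.0107). Whether its probe reads RNA of the transgene, of the mouse's own Nanos2 gene or of both was not tested. In the Input, which is whole testis, fewer cells of a type and less RNA per cell cannot be told apart. Below, a gene that fell or rose had a lower or higher level in the FLAG IP than in the starting material. Such a change compares recovered RNA with its source and does not measure a change of expression in the testis.

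Collagens are secreted proteins in which alpha chains, each a long run of glycine-led repeats, wind into a triple helix. Fibrillar chains form the banded fibres of the interstitium. Type IV chains form the sheet-like network of basement membranes, which in the testis surrounds the seminiferous tubule beneath Sertoli cells and spermatogonia and is laid down by Sertoli and peritubular myoid cells. The remaining chains coat fibrils, form beaded filaments or anchoring fibrils, span the plasma membrane, or carry the antiangiogenic C-terminal fragments endostatin and restin.

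Collagen transcripts were lower in the FLAG IP across chain types. Of the 34 genes with a tested probe, 20 fell, 0 rose and 14 did not pass the test. The 20 were between 1.58-fold and 3.74-fold lower, with Col2a1, Col4a3 and Col3a1 at the large end and Col18a1, Col23a1 and Col9a2 at the small end. The share of collagen genes called lower was 58.8%, and over all 13263 named genes tested 18.6% were called lower and 16.0% higher. Their median change was −1.01, against −0.12 over all named genes, as the plot of all changes shows. Of the 34, 13 (38.2%) fell by 2-fold or more, where 4.97% of all named genes did. In limma, 0 of the collagen genes were positive and 24 negative at an unadjusted p under 0.05. The share of all named genes passing that looser cut was not counted, here or with 1 array left out below. Counts at the unadjusted cut thus have no background beside them. Both FLAG IP arrays lay below both Input arrays for 31 of the 34, which was the case for 44.1% of named genes (31.0% lay wholly above), and in the other 3 (Col1a2, Col24a1 and Col8a1) the groups overlapped. All 34 were measured above background on all 4 arrays with their brightest probe, so none of them entered the test through Input alone. Without Input replicate 1 the number called lower was 2, and without Input replicate 2 it was 0, with 22 and 17 negative at an unadjusted p under 0.05 and 33 of 34 changes negative in both cases, while the share of all probes called lower was 2.78% and 2.30%. Scaling to spike-in spots moved the median of all probes to −1.10, in place of −0.125, which lowers every change by the same amount, so that the smaller positive changes below are negative on that scale. It gave 17589 probes lower and 716 higher, in place of 5579 and 4330. It called 33 collagen genes lower, or 11 once that shift was taken off. Both spike-in fits gave every tested collagen probe the same SE, larger than most of those in the reported fit. Their calls thus follow the size of a change and not the spread of that gene's own arrays, and the counts do not reflect the shift alone. With the shift taken off, the collagen median less the median of all probes was −0.888, as in the reported fit.

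**Figure D1:**
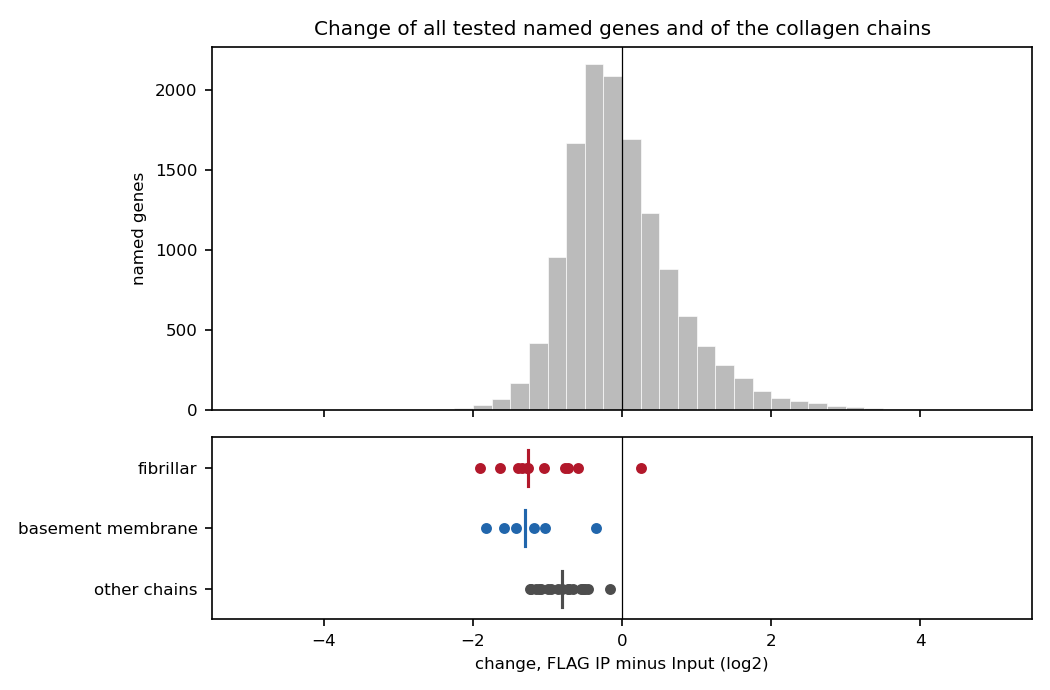
Change of the brightest probe in log2 units, FLAG IP minus Input, as a histogram of the 13263 named genes tested (top, number of genes per bin of 0.25) and as 1 point per collagen gene by class (bottom, vertical strokes are class medians). The class medians lie at −1.26, −1.31 and −0.81, and 1 collagen gene, Col24a1, lies above 0.

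Among the fibrillar chains, 7 of 11 fell, 0 rose and 4 did not pass, with a median change of −1.26. Col2a1, the chain of cartilage collagen II (RefSeq transcript NM_031163), had levels of −0.60 and −1.13 in the FLAG IP arrays, against 0.74 and 1.34 in the Input arrays. The groups were separate by more than the spread within either, and the change was −1.91 ± 0.29 (3.74-fold lower, adjusted p = 0.0129). Col3a1, the homotrimeric collagen III of pliable connective tissue (NM_009930), had 3.11 and 2.42 in the FLAG IP arrays, against 4.20 and 4.62 in the Input arrays, and fell by 1.64 ± 0.29 (3.13-fold, adjusted p = 0.0176). Here too every FLAG IP array was the lower one.

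Collagen I, the main fibre-forming type of most tissues, consists of alpha1 and alpha2 chains. Col1a1 (NM_007742) had 4.13 and 3.14 in the FLAG IP arrays, against 4.75 and 5.21 in the Input arrays, and fell by 1.34 ± 0.38 (2.54-fold, adjusted p = 0.0496), a call at the threshold that ended under 8 of 17 processing alternatives. Col1a2 (NM_007743) had 5.63 and 4.45 in the FLAG IP arrays, against 5.33 and 6.20 in the Input arrays. FLAG IP 1 thus lay above Input 1, the groups overlapped, and the change of −0.73 ± 0.49 (95% interval −2.01 to 0.56, adjusted p = 0.294) did not pass. The fall of 1 partner of the trimer and not of the other is not shown to be a difference, since the intervals of both changes overlap and their difference was not tested.

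Type V chains, which nucleate collagen I fibrils and set their diameter, had changes close together on their brightest probes. Col5a1 had 1.30 and 0.66 in the FLAG IP arrays, against 1.88 and 2.61 in the Input arrays (−1.26 ± 0.34, adjusted p = 0.0458, ended under 8 of 17 alternatives). Col5a2 had −1.39 and −2.51, against −1.07 and −0.26 in the Input arrays, and with a change of −1.28 ± 0.47 did not pass (adjusted p = 0.0917). Col5a3 had −0.80 and −1.37 in the FLAG IP arrays, against 0.07 and 0.55 in the Input arrays (−1.40 ± 0.28, adjusted p = 0.0219). The 3 changes spanned 0.13, and the arrays of the groups did not overlap for any of them. The second probe of Col5a1 lay apart, at −0.02 ± 0.27 with overlapping groups.

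Of the minor fibrillar chains, Col11a1, a cartilage chain that resembles type V, had −2.60 and −2.99 in the FLAG IP arrays, against −1.98 and −1.53 in the Input arrays (−1.04 ± 0.24, adjusted p = 0.0298, ended under 7 of 17 alternatives). Its partner Col11a2 had −4.81 and −4.36 in the FLAG IP arrays, against −3.92 and −4.08 in the Input arrays, and its change of −0.59 ± 0.20 did not pass (adjusted p = 0.0810). On these probes the arrays of both chains were separate by group. The second probe of Col11a2, well above background on all 4 arrays, went the other way without passing (0.25 ± 0.18, adjusted p = 0.314). It had −4.45 and −4.79 in the FLAG IP arrays, against −4.96 and −4.793 in the Input arrays. Col27a1, a fibrillar chain of cartilage, had −5.19 and −5.64 in the FLAG IP arrays, against −4.58 and −4.73 in the Input arrays, and fell by 0.76 ± 0.20 (adjusted p = 0.0437, ended under 8 of 17 alternatives). Col24a1, the remaining chain of that subgroup, had −3.22 and −3.95 in the FLAG IP arrays, against −3.99 and −3.69 in the Input arrays. It was the only one of the 34 with a positive change, 0.26 ± 0.29 (−0.72 under spike-in scaling and −0.11 without FLAG IP replicate 1), and its groups overlapped (adjusted p = 0.516).

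**Figure D2:**
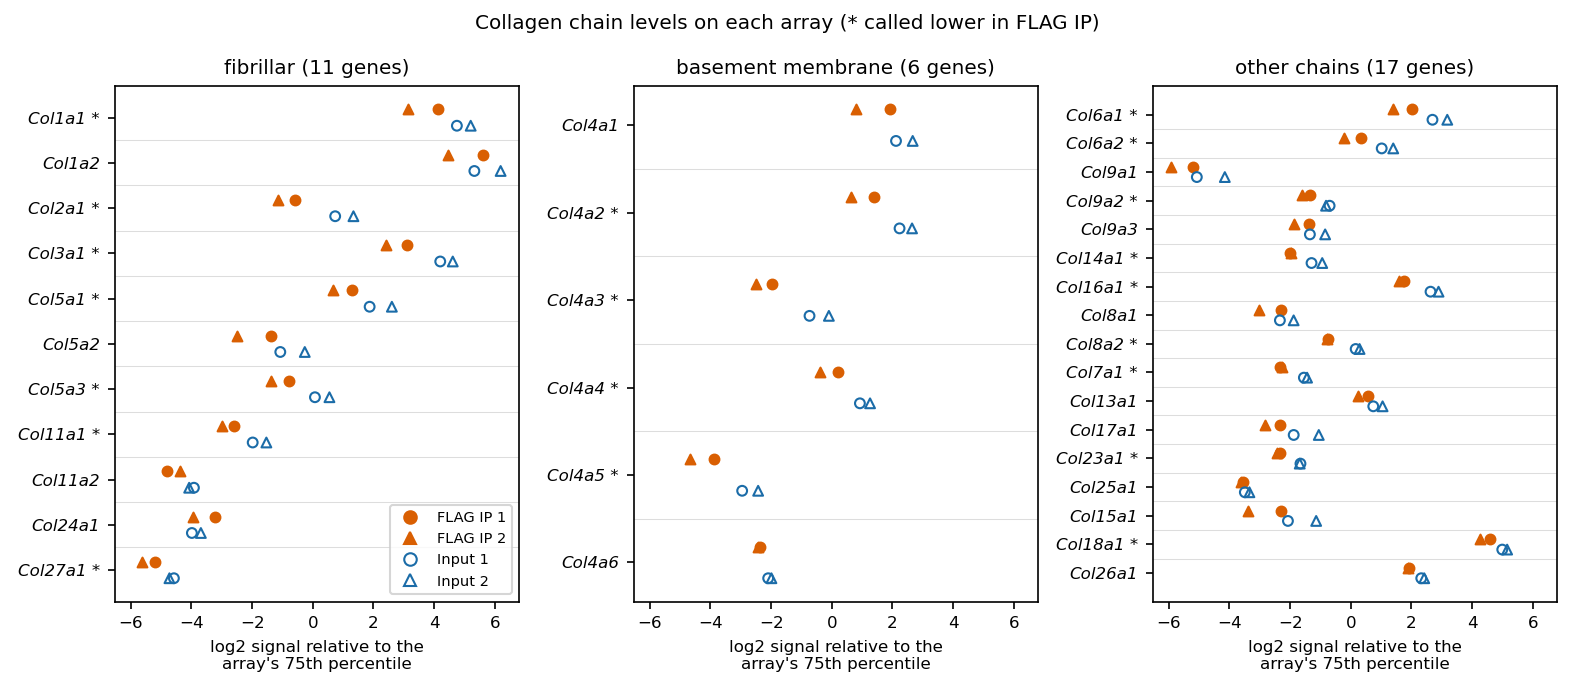
Level of the brightest probe of each collagen gene on each array, in log2 units relative to the array's 75th percentile, by class, with FLAG IP arrays as filled and Input arrays as open symbols (circles replicate 1, triangles replicate 2). Filled symbols lie left of open ones for 31 of 34 genes, and within a group the triangle is the lower symbol in the FLAG IP for 31 genes and the higher one in the Input for 30.

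All 6 type IV chains of the basement membrane had both FLAG IP arrays below both Input arrays, with 4 called lower, 0 higher and a median of −1.31. The alpha3, alpha4 and alpha5 chains, which assemble into one heterotrimer, all fell. Col4a3 (NM_007734) had −1.96 and −2.51 in the FLAG IP arrays, against −0.73 and −0.09 in the Input arrays, and fell by 1.82 ± 0.30 (3.54-fold, adjusted p = 0.0152). Col4a4 (NM_007735) had 0.20 and −0.38 in the FLAG IP arrays, against 0.93 and 1.26 in the Input arrays, and fell by 1.19 ± 0.26 (2.28-fold, adjusted p = 0.0267). Col4a5 (NM_007736) had −3.87 and −4.68 in the FLAG IP arrays, against −2.95 and −2.43 in the Input arrays, and fell by 1.59 ± 0.34 (3.00-fold, adjusted p = 0.0264). The spread between replicates was 0.33 to 0.81 for these 3 chains, smaller than each change. The call of Col4a3 held under 16 of 17 alternatives and ended without Input replicate 2.

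The alpha1 and alpha2 chains form the common trimer of nearly all basement membranes, and their genes lie head to head. Col4a1 (NM_009931) had 1.91 and 0.82 in the FLAG IP arrays, against 2.12 and 2.67 in the Input arrays. The 2 FLAG IP arrays differed by more than the gap between FLAG IP 1 and Input 1, and the change of −1.03 ± 0.42 did not pass (95% interval −2.12 to 0.06, adjusted p = 0.116). Col4a2 (NM_009932) had 1.39 and 0.64 in the FLAG IP arrays, against 2.24 and 2.65 in the Input arrays, and fell by 1.43 ± 0.31 (2.69-fold, adjusted p = 0.0262). Col4a6, whose chain joins alpha5 in a further trimer, had −2.37 and −2.43 in the FLAG IP arrays, against −2.10 and −1.99 in the Input arrays. This was the smallest mean change of the brightest type IV probes, −0.36 ± 0.14 (adjusted p = 0.108).

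Of the 17 other chains tested, 9 fell, 0 rose and 8 did not pass, with a median of −0.81. The type VI chains, which form beaded filaments around cells, both fell. Col6a1 had 2.03 and 1.41 in the FLAG IP arrays, against 2.70 and 3.18 in the Input arrays (−1.22 ± 0.29, adjusted p = 0.0336). Col6a2 had 0.34 and −0.22 in the FLAG IP arrays, against 1.02 and 1.40 in the Input arrays (−1.15 ± 0.26, adjusted p = 0.0285). The 2 changes differed by 0.067, less than either SE.

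Chains that associate with fibrils through an interrupted triple helix (FACIT collagens) had 3 of 5 called lower. Col16a1, a widespread member, had 1.77 and 1.59 in the FLAG IP arrays, against 2.63 and 2.90 in the Input arrays, and fell by 1.09 ± 0.17 (2.12-fold, adjusted p = 0.0133). Col14a1, a chain of interstitial fibrils, had −1.99 and −1.97 in the FLAG IP arrays, against −1.29 and −0.94 in the Input arrays (−0.86 ± 0.18, adjusted p = 0.0234). In both, the FLAG IP arrays lay close together and below both Input arrays. Of the 3 chains of cartilage collagen IX, Col9a2 fell by 0.72 ± 0.16 (adjusted p = 0.0283), with −1.36 and −1.60 in the FLAG IP arrays, against −0.70 and −0.81 in the Input arrays. Col9a1 (−0.95 ± 0.40) and Col9a3 (−0.52 ± 0.27) did not pass, although neither had overlapping groups.

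Among network and anchoring chains, Col8a2, a hexagonal-lattice chain of Descemet's membrane and vessels, had −0.77 on both FLAG IP arrays, against 0.16 and 0.29 in the Input arrays, and fell by 0.997 ± 0.14 (1.995-fold). Its adjusted p of 0.0108 was the smallest of the 34. Its partner Col8a1 had −2.29 and −3.03 in the FLAG IP arrays, against −2.34 and −1.88 in the Input arrays, with overlapping groups and a change of −0.55 ± 0.31 (adjusted p = 0.220). Col7a1, which forms the anchoring fibrils that tie epithelial basement membranes to the stroma, had −2.35 and −2.26 in the FLAG IP arrays, against −1.55 and −1.44 in the Input arrays, and fell by 0.81 ± 0.14 (adjusted p = 0.0167). Neither Col8a2 nor Col7a1 had overlapping groups.

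The membrane-spanning collagens had the smallest changes of the classes with more than 2 genes, with 1 of 4 called lower and a median of −0.60. Col23a1, one of them, had −2.34 and −2.42 in the FLAG IP arrays, against −1.66 and −1.68 in the Input arrays, and fell by 0.71 ± 0.14 (adjusted p = 0.0205). Its dimmer probe had a change of −0.03 ± 0.16 with overlapping groups (adjusted p = 0.902). The call of Col23a1 ended under 5 of 17 alternatives, among them probes averaged. Col17a1, of hemidesmosomes, had −2.34 and −2.82 in the FLAG IP arrays, against −1.88 and −1.05 in the Input arrays, and was not called on that probe (−1.11 ± 0.34, adjusted p = 0.0599). Col13a1 (−0.49 ± 0.20, adjusted p = 0.111) and Col25a1, first described in amyloid plaques (−0.17 ± 0.14, adjusted p = 0.402), did not pass. For Col25a1 the 95% interval was −0.54 to 0.21, and under spike-in scaling its change was −1.14 (adjusted p = 0.00998 in limma).

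Both multiplexins, the basement membrane zone collagens that carry the antiangiogenic fragments, had FLAG IP arrays below Input arrays. Col18a1, the source of endostatin, had 4.59 and 4.25 in the FLAG IP arrays, against 4.996 and 5.16 in the Input arrays, and fell by 0.66 ± 0.18 (1.58-fold, adjusted p = 0.0468), a call that ended under 9 of 17 alternatives. Col15a1 had −2.31 and −3.38 in the FLAG IP arrays, against −2.07 and −1.14 in the Input arrays (−1.24 ± 0.48, adjusted p = 0.104), so that a mean difference close to that of Col6a1 did not pass on replicates that lay further apart. Col26a1, a gene first found in testis and ovary, had 1.93 and 1.90 in the FLAG IP arrays, against 2.33 and 2.42 in the Input arrays, and did not pass (−0.46 ± 0.14, adjusted p = 0.0573). The 4 remaining genes with probes, Col6a6, Col10a1, Col19a1 and Col28a1, had no probe well above background on both arrays of a group and were not tested, and 6 (Col6a3, Col6a4, Col6a5, Col12a1, Col20a1 and Col22a1) had no matched probe.

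Of the 49 tested collagen probes 23 were lower and 0 higher, against 20.0% lower and 15.6% higher over all tested probes. Besides the brightest probes, 15 further probes of 14 genes were tested, of which 3 were called lower and 13 had a negative change. In 7 of the 14 genes the probes were called in different ways. Probes of 3 type IV genes had like changes. These were −1.83 and −1.94 for Col4a3 (the second with adjusted p = 0.0151), −1.43 and −1.20 for Col4a2 (the second with adjusted p = 0.0393), and −1.03 and −0.86 for Col4a1, while the probes of Col4a6 had −0.36 and −1.03. For Col17a1 the dimmer probe was called (−1.31 ± 0.22, adjusted p = 0.0156) and the brighter one was not.

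The widest spreads between probes of a gene were those of the fibrillar genes Col2a1, Col1a1 and Col5a1. The second probe of Col2a1 had −2.78 and −3.17 in the FLAG IP arrays, against −3.65 and −3.17 in the Input arrays, a change of 0.43 ± 0.24 that did not pass (adjusted p = 0.211) and is opposite in sign to that of the brightest probe, 2.34 apart. The second probe of Col5a1 had a change of −0.02 ± 0.27, and that of Col3a1, well above background on 1 of 2 FLAG IP arrays, −0.86 ± 0.60. The 2 further probes of Col1a1 had −1.91 ± 0.58 (adjusted p = 0.0588) and −0.28 ± 0.72, the last well above background on 1 of 2 FLAG IP arrays. Averaging all probes of a gene left 2 fibrillar genes called, in place of 7, with a median of −0.73. That average also takes in dim probes that were not tested, such as those of Col5a3, Col11a1 and Col24a1. A second probe of Col15a1 lay under the background threshold on both FLAG IP arrays and entered the test through Input alone. Its bound was at least 1.44-fold lower, but its change of −0.68 ± 0.31 did not pass (adjusted p = 0.152), so a fall is not shown.

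**Figure D3:**
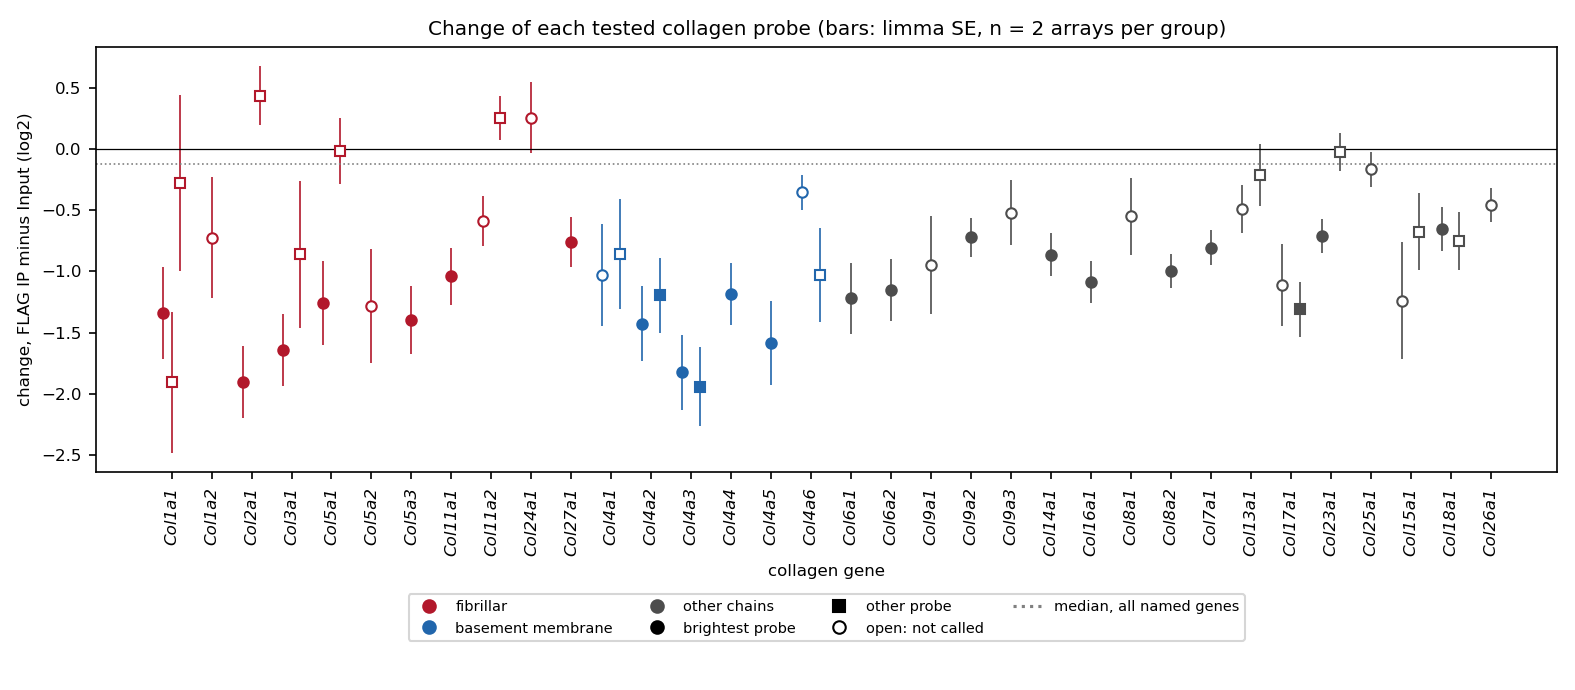
Change of each of the 49 tested collagen probes, FLAG IP minus Input in log2 units, with limma SE as bars (n = 2 arrays per group), circles for the brightest probe of a gene, squares for its other probes, and filled symbols for probes called lower. The dotted line is the median of all named genes (−0.12). Probes of Col4a1, Col4a2 and Col4a3 lie within 0.23 of each other, while those of Col1a1, Col2a1 and Col5a1 span 1.24 to 2.34.

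Replicate arrays differed more in collagens than in most probes, and in a common direction. Between the FLAG IP arrays the median absolute difference was 0.54 for the 34 collagen genes, against 0.25 for all tested probes, and between the Input arrays it was 0.41, against 0.15. FLAG IP 1 was above FLAG IP 2 for 31 of 34 collagen genes, most of all for Col1a2 (by 1.18), and Input 2 was above Input 1 for 30 of 34, most of all for Col15a1. Both held for 28 of the 34 (82.4%), among them all 6 type IV chains, and for 34.4% of all named genes. The summed linear level of the fibrillar probes, as multiples of the 75th percentile, was 80.1 and 38.8 in the FLAG IP arrays, against 92.9 and 146 in the Input arrays, and that of the type IV probes 8.05 and 4.49, against 11.9 and 16.4 in the Input arrays.

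Markers of stromal and vascular cells moved with these differences. The replicate pattern, FLAG IP 1 above FLAG IP 2 with Input 2 above Input 1, held in 3 of 6 macrophage, 4 of 12 Sertoli and 5 of 15 germ cell markers, against 34.4% of all named genes. Outside the marker lists, the pattern held in 8 of 9 collagen receptor and 8 of 11 collagen turnover genes. The counts of markers called stand against 18.6% lower and 16.0% higher over all named genes. All 10 stromal fibroblast markers were above background, 3 fell (Igf1 by 1.17 ± 0.15, Mfap5 by 1.01 ± 0.25 and Tcf21 by 0.94 ± 0.14), 0 rose, and their summed level was 38.2 and 23.3 in the FLAG IP arrays, against 45.4 and 63.3 in the Input arrays. FLAG IP 1 exceeded FLAG IP 2 and Input 2 exceeded Input 1 in 9 of the 10, and likewise in 8 of 8 endothelial markers, whose summed level was 3.33 and 2.37 in the FLAG IP arrays, against 2.45 and 3.46 in the Input arrays. The endothelial list had 0 members lower, 7 not called and 1 higher, Flt1, a receptor for VEGF (1.29 ± 0.30, adjusted p = 0.0320). Its median change was −0.44, and the members not called ranged from −1.19 (Vwf) to 0.43 (Kdr). Peritubular myoid markers had 5 of 10 lower, led by Tpm1, Mylk and Actg2, and summed to 84.7 and 87.8 in the FLAG IP arrays, against 148 and 133 in the Input arrays, and 2 of 10 shared the replicate pattern. Sertoli markers had 4 of 12 lower (Sox9, Amh and Sox8 most), with sums of 61.6 and 59.0, against 85.7 and 84.9 in the Input arrays. Leydig markers had 4 of 8 lower (Insl3 and Hsd3b6 most among those measured in both groups, and Lhcgr, which was not well above background on either FLAG IP array and was at least 1.78-fold lower) and 0 of 8 with the pattern, with sums of 14.4 and 18.3 in the FLAG IP arrays, against 39.5 and 29.9 in the Input arrays, and macrophage markers had 5 of 6 lower (Tyrobp, Aif1 and Fcer1g most), with sums of 1.64 and 1.77, against 3.57 and 3.61 in the Input arrays. Germ cell markers had 0 of 15 lower and 8 higher, led by Lhx1, Neurog3 and Bcl6b, with 1 of the 8, Ret, not well above background on either Input array and at least 2.30-fold higher (named after its values were seen). The 7 not called were Dazl (0.66), Ddx4 (0.16), Mael (0.12), Tex101 (0.02), Sycp3 (−0.09), Dnd1 (−0.36) and Uchl1 (−0.42), so the rise was not one of the whole list. The 15 germ cell markers summed to 110 and 133 in the FLAG IP arrays, against 119 and 109 in the Input arrays. Every marker of these lists with a matched probe was well above background on both arrays of a group, and Csf1r, Cd68 and Rhox13 had no matched probe. The part of cell makeup in the collagen changes was not tested.

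**Figure D4:**
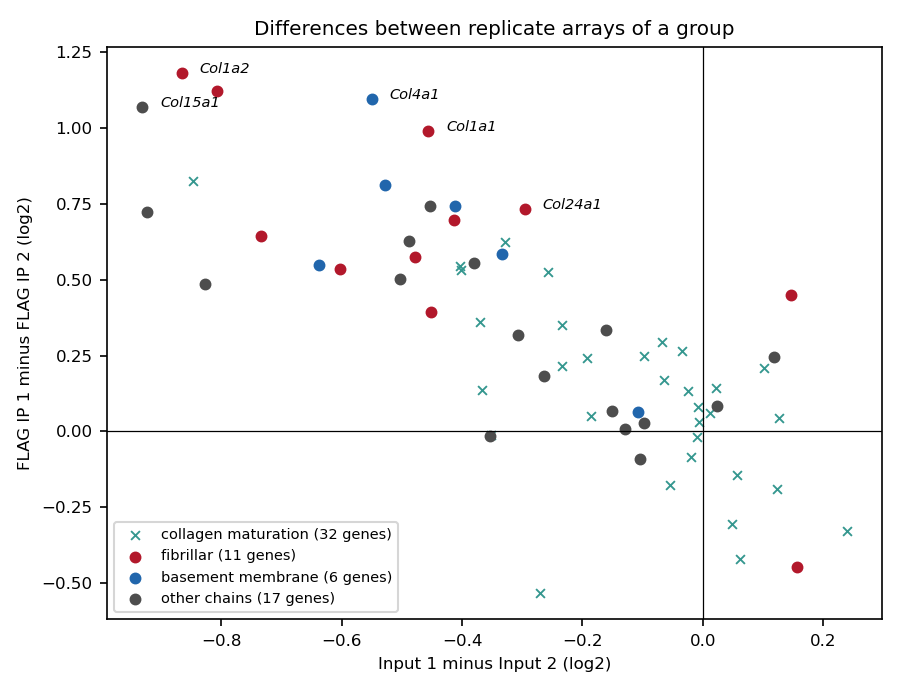
Difference between the FLAG IP arrays (vertical axis, FLAG IP 1 minus FLAG IP 2) against that between the Input arrays (horizontal axis, Input 1 minus Input 2), in log2 units, for 34 collagen genes (dots, by class) and 32 collagen maturation genes (crosses). 28 of the 34 collagen genes lie above 0 on the vertical and below 0 on the horizontal axis, and 18 of the 32 maturation genes do.

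Among the enzymes, chaperones and transport factors that mature collagen, calls were mostly lower. Of 32 tested members of that list 12 were called lower and 1 higher, and 19 were not called, with a median change of −0.54, where 18.6% of all named genes were lower and 16.0% higher. Spike-in scaling gave 29 lower, or 1 with its median shift taken off. Tmem38b, an endoplasmic reticulum cation channel needed for collagen processing, had −2.43 and −2.01 in the FLAG IP arrays, against −0.97 and −1.03 in the Input arrays, and fell by 1.21 ± 0.19 (adjusted p = 0.0136). Ppib, the cyclophilin of the prolyl 3-hydroxylation complex, fell by 1.03 ± 0.14, and Fkbp14, a prolyl isomerase for procollagen, fell by 1.003 ± 0.14. Lox and Loxl1, which oxidise lysines for cross-links, fell by 1.03 ± 0.14 and 0.93 ± 0.16. Sec24d, a coat protein of the vesicles that carry procollagen, fell by 0.98 ± 0.13, while its partner Sec23a, named after its values were seen as the only member called higher, rose by 0.64 ± 0.13 (adjusted p = 0.0251), with a second probe at −0.04.

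Of 9 collagen receptors tested 6 were lower and 1 higher, with a median of −0.68, against the same shares of all named genes (18.6% and 16.0%). With the spike-in shift taken off 2 were lower, and with a filter on all 4 arrays, which leaves out Ddr2, 5 were lower. Ddr2, the receptor tyrosine kinase for fibrillar collagen, had −5.51 and −6.35 in the FLAG IP arrays, against −4.50 and −4.28 in the Input arrays, and fell by 1.54 ± 0.31 (adjusted p = 0.0232), well above background on 1 of 2 FLAG IP arrays. Mrc2, an endocytic collagen receptor, fell by 1.34 ± 0.23, Cd44, a matrix receptor best known for hyaluronan, by 0.92 ± 0.14, Ddr1 by 0.84 ± 0.21 and Lair1, an inhibitory receptor of leukocytes, by 0.67 ± 0.14. The second probe of Cd44 had −0.12. Itga1, the alpha subunit of an integrin that binds collagen IV, rose by 0.84 ± 0.15 (adjusted p = 0.0163), with −3.12 and −3.28 in the FLAG IP arrays, against −4.08 and −4.00 in the Input arrays.

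Genes of collagen turnover had 1 of 11 lower, 1 higher and 9 not called, with a median of −0.49, and its share called lower was not above the 18.6% of all named genes. Spike-in scaling gave 10 lower, or 0 with its median shift taken off. Ctsk, the cysteine protease cathepsin K that cleaves the triple helix, had −2.34 and −2.62 in the FLAG IP arrays, against −1.35 and −1.26 in the Input arrays, and fell by 1.18 ± 0.16 (adjusted p = 0.0106). Mmp9, a gelatinase that degrades denatured collagen and collagen IV, had −2.18 and −2.63 in the FLAG IP arrays, against −3.47 and −3.19 in the Input arrays, and rose by 0.92 ± 0.22 (adjusted p = 0.0328), with a second probe at 1.79. Without Input replicate 1 or Input replicate 2, 0 members of the maturation, receptor and turnover lists were called lower.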

How the data were processed

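Single-colour (Cy3) Agilent mouse arrays were scanned and extracted with Agilent Feature Extraction, version 9.5 per the submitters' processing notes. The deposited spot intensity files hold background-subtracted processed signals, raw median signals, local background and quality flags, per the file headers. The values in the authors' deposited table are log2. Compared with the scanner values, every column matched the log2 processed signal shifted by 1 offset per array, to within 0.01 for 99.62% to 99.64% of probes, with column medians of 6.25 and 6.16 (FLAG IP 1 and 2) and 6.18 and 6.25 (Input 1 and 2).

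From these files, outlier spots (62 to 90 of 43379 per array) were left out, spots of a probe were averaged, and log2 signals were set relative to each array's 75th percentile (1019 and 1267 in FLAG IP, 1474 and 1676 in Input). Of the probes, 66.3% to 68.4% were well above background on an array (a share of at least 0.5 of spots flagged so), and 0 spots were saturated. Accessions were matched to RefSeq transcripts of GRCm38.p6, which named 22951 probes (55.7%), 13263 genes of which were tested. Coordinates are left out because the array's design predates that build. Probes well above background on both arrays of a group entered lmFit and eBayes of limma 3.58.1 (R 4.3.3; two-sided, no covariates), with Benjamini-Hochberg adjustment. A probe not above background in a whole group has only a bound, given as "at least". Precision is limited by the number of arrays.

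Chain classes, gene lists and the rule for named genes (all chains with a tested probe, and up to 6 called genes of a list or 3 of a marker list with the largest change) were chosen with earlier results of these data known. Same-numbered arrays did not deviate together (correlation of replicate differences −0.377 over probes and −0.752 over the 34 collagen genes). The files hold no mean spot signal, so normexp used median signals with an offset of 50.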

Additional observations from a re-analysis of the deposited data

How the results depend on the processing

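The number of collagen genes called lower, 20 of 34 in the reported fit, was 17 to 22 under quantile normalization, another reference for the 75th percentile, normexp, a filter on all 4 arrays, trend and robust moderation, the authors' deposited table, and the brightest probe kept alone. It was 33 under spike-in scaling and 11 with its median shift taken off, both with the same SE for every tested collagen probe. It was 6 of 38 with no filter on dim probes, 13 with probes averaged (untested ones included), and 10 with the replicate number as a block. Leaving out 1 array gave 0 to 23, with 23 without FLAG IP replicate 1, 15 without FLAG IP replicate 2, 2 without Input replicate 1 and 0 without Input replicate 2, on fewer arrays. Over all probes the counts lower and higher were 3608 and 3326 without a filter, 2702 and 2875 with the block, 1667 and 2946 with the spike-in shift taken off, 775 and 1166 without Input replicate 1 and 641 and 1266 without Input replicate 2. With the block, 7 maturation and 3 receptor genes were lower, in place of 12 and 6, and without a filter 3 receptor genes. The number of collagen genes called higher was 0 under all 17 alternatives. Crossing the pairs (FLAG IP 1 with Input 2), added after seeing the data, gave 31 collagen genes lower and 7944 lower and 5587 higher over all probes.

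Of 800 changes of single genes or probes under alternatives, 613 kept direction and side of the threshold, 104 lost and 65 gained a call, and 18 turned sign. The dimmer Col5a1 probe had 0.07445 under quantile normalization, 0.11 with the spike-in shift taken off and 0.23 under normexp, and the dimmer Col23a1 probe 0.03414, 0.10 and 0.19. With 1 array left out, the ranges were −0.328 to 0.294 for that Col5a1 probe, −0.151 to 0.0974 for that Col23a1 probe, −1.16 to 0.594 for the dimmest Col1a1 probe, −0.517 to 0.0912 for the dimmer Col13a1 probe and −0.111 to 0.622 for Col24a1. Under spike-in scaling, the second probes of Col2a1 and Col11a2 had −0.54 and −0.72 and Col24a1 −0.72. Under normexp, the dimmest Col1a1 probe had 0.13 and the second Col15a1 probe 0.19. The cause was not tested. The replicate block is given here alone because labels do not say that a number marks a shared animal. The slide and scan could not be used as a block, as the 4 arrays share 1 of each.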
